A study of Mus musculus with 2 samples.

Results

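Bidirectional promoter regions were taken as the accessible regions that sit at the head of 2 protein-coding genes transcribed away from each other. Of the 24394 regions merged from the 50003 records of the series peak list thresholded on reproducibility, 763 (3.13%) had their midpoint within 1 kb of the starts of 2 protein-coding genes on opposite strands that point away from each other. The choice used position alone and no measured value. They stood at 668 distinct gene pairs and 1336 genes. The comparison set was the 7851 regions (32.2%) within 1 kb of the start of a single protein-coding gene. A further 416 regions lay at opposite-strand genes whose 5′ ends overlap and 116 at several genes of 1 strand, and neither kind was counted in a set. Beside the 763 members, 40 (5.24%) also had a noncoding gene start in reach and 32 had 3 or more coding genes in reach.

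The cells were mouse CFU-E, colony-forming erythroid progenitors committed to the red cell lineage, isolated from adult C57BL/6J mice, males of 5 to 6 weeks, with no treatment named. ATAC-seq was run on 2 libraries of 50000 cells each, numbered as biological replicates 1 and 2 under 1 donor identifier, so they form 1 group without a contrast between conditions. Since 1 donor identifier covers both, the libraries were counted as 1 sample, and every interval below covers counting over regions or genes and not variation between animals. Of 10 erythroid markers, including the transcription factors Gata1 and Klf1, the erythropoietin receptor Epor and the haem enzyme Alas2, all 10 had a region at the promoter. Promoter regions were found for 1 of 3 T cell markers (Lck), for 0 of 4 granulocyte and monocyte markers, for 0 of 2 B cell markers, for 0 of 2 megakaryocyte markers and for the liver marker Alb in 0 of 1. Read depth is unknown from peak lists.

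In ATAC-seq the Tn5 transposase inserts adapters into DNA that nucleosomes leave free, so promoters from which transcription starts appear as peaks. In a bidirectional, or head-to-head, promoter a short stretch of DNA separates the starts of a pair of genes on opposite strands, and initiation complexes assemble facing outward on each side of it. Such promoters are known in mammals to be rich in CpG dinucleotides, to carry few TATA boxes and to serve many genes of DNA repair, of mitochondria and of the replication-dependent histones. Binding of the erythroid factor GATA1 to these promoters was not measured here.

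The sequences between the starts are shown for 7 pairs, since they are the DNA that both genes share. They are among the regions of highest fold enrichment whose starts are 300 bp or less apart. Fold enrichment is the authors' ratio for a peak, whose denominator the sources used here do not give, and a region takes the value of its strongest record. Each is the mm10 plus strand read 5′ to 3′ from the base after the minus-strand gene's start to the base before the plus-strand gene's start, so that the gene named first runs to the left and the other to the right. Capitals mark matches, on either strand, to the binding consensus of NFY (CCAAT), of SP and KLF factors (the GC box GGGCGG) or of ETS factors (CCGGAAG).

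Gm17657/Tbc1d22b: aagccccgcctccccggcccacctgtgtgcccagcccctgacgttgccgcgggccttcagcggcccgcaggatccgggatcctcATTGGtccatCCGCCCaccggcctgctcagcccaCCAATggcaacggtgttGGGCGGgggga
Cetn2/Nsdhl: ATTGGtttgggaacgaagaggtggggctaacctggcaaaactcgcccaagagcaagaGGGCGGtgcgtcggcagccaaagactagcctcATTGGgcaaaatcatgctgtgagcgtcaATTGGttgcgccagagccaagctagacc
Pecr/Tmem169: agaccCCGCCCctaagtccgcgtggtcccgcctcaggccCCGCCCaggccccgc
Fam3a/Ikbkg: cctcctccctctcctcc
Fam126b/Ndufb3: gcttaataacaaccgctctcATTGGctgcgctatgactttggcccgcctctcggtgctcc
Helq/Mrps18c: gtgaCTTCCGGcccgggaagcgcgggaa
Zfp597/Gm20695: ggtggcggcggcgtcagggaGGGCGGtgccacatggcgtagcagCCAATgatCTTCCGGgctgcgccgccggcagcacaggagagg

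The stretches lie at chr17:29549639-29549784, chrX:72918412-72918556, chr1:72284315-72284368, chrX:74393273-74393289, chr1:58586324-58586383, chr5:100798599-100798626 and chr16:3884562-3884647, in the order shown. Each lies outside both gene records, between the starts. They run from 17 to 146 bases, and their GC content runs from 55.9% (Cetn2/Nsdhl) to 79.6% (Pecr/Tmem169). The Cetn2/Nsdhl stretch holds 3 CCAAT matches, all read as ATTGG on the plus strand, and 1 GC box. The Gm17657/Tbc1d22b stretch holds 2 CCAAT matches and 2 GC boxes. In Zfp597/Gm20695 all 3 consensus types occur within 86 bases. Fam3a/Ikbkg, where 17 bases of pyrimidines separate the starts, has none of the 3, which says only that these letters are absent from that stretch. Over all 540 members whose stretch could be read in this way (12 to 300 bases), 49.1% held a GC box, 32.4% a CCAAT box and 14.8% the ETS consensus, with a median GC content of 64.6%.

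The first question was how many of the head-to-head pairs in the annotation were accessible in CFU-E. Of 755 pairs of protein-coding genes with starts at most 1 kb apart, 678 (89.8%, Wilson 95% interval 87.4 to 91.8) had a region whose midpoint was within reach of both starts. Among the 20449 protein-coding genes outside such pairs, 7802 (38.2%) had a region in reach of their start, a difference of 51.6 points (Newcombe 95% interval 49.2 to 53.7). The units differ here, since a region at a pair can belong to either of its 2 genes. Counted by gene, 1344 of 1489 genes of pairs (90.3%) had a region. Replicate 1 alone gave 88.3% of pairs against 36.1% of other genes, and replicate 2 alone gave 88.7% against 35.3%.

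The gap was present at every CpG content of the start. CpG content is given as the observed number of CpG dinucleotides over that expected from base composition, in 201 bp, and was called low under 0.6 and high from 0.9. The genes of a pair can be scored by the same region, so they are not independent and the intervals here are too narrow. A gene of a pair can also count through a region at its partner's start. Counted gene by gene, 140 of 212 genes of pairs with a CpG-low start (66.0%) had a region. Among 10759 other genes it was 12.3%, a difference of 53.8 points (47.1 to 59.8). In the middle class the shares were 92.8% and 60.7%. With a CpG-high start they were 95.6% of 666 and 74.3% of 4397, a difference of 21.3 points (19.1 to 23.2). The gap was thus narrower at CpG-high starts than at CpG-low starts. With 74.3% of other genes already holding a region at CpG-high starts, a gap as wide as that at CpG-low starts was not possible there.

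Of the 77 pairs without a region, 19 held a predicted gene (symbols beginning Gm or ending Rik), against 78 of all 755. Examples, chosen after their values were seen, are Pecam1/Milr1 of endothelium and mast cells, Duox2/Duoxa2, the thyroid oxidase with its maturation factor, Kirrel2/Nphs1 with the podocyte protein nephrin, Klc3/Ckm with muscle creatine kinase, and the testis histone pair Hist1h2ba/Hist1h2aa. Pairs with widely expressed genes were among them too, such as Rnf151/Rps2, with a cytosolic ribosomal protein, and Tomm6/Frs3, with a subunit of the mitochondrial outer membrane translocase. In 15 of the 77, the less strict overlap list, which applies no reproducibility threshold, held a region. Of the 14 annotated pairs with a replication-dependent histone gene, 13 had a region.

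Bidirectional regions were wider than single-gene promoter regions and held more summits, while the interval of their fold ratio held 1 in the thresholded lists of the series. The median fold of the strongest record was 10.4 (95% interval 10.1 to 10.6) over the 763 members and 10.05 (9.92 to 10.2) over the 7851 single-gene regions, a ratio of 1.03 (0.991 to 1.07). In each replicate's own list the ratio was 1.01. It was 1.16 (1.11 to 1.21) in the overlap list without a reproducibility threshold and 1.11 with every transcript start. With the median of a region's records in place of the strongest, the ratio went the other way, at 0.962 (5.57 against 5.78). With both sets cut together into 4 fold classes at their quartiles, 19.0% of members fell in the lowest class and 22.4% in the highest, against 25.6% and 25.3% of single-gene regions.

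**Figure D1:**
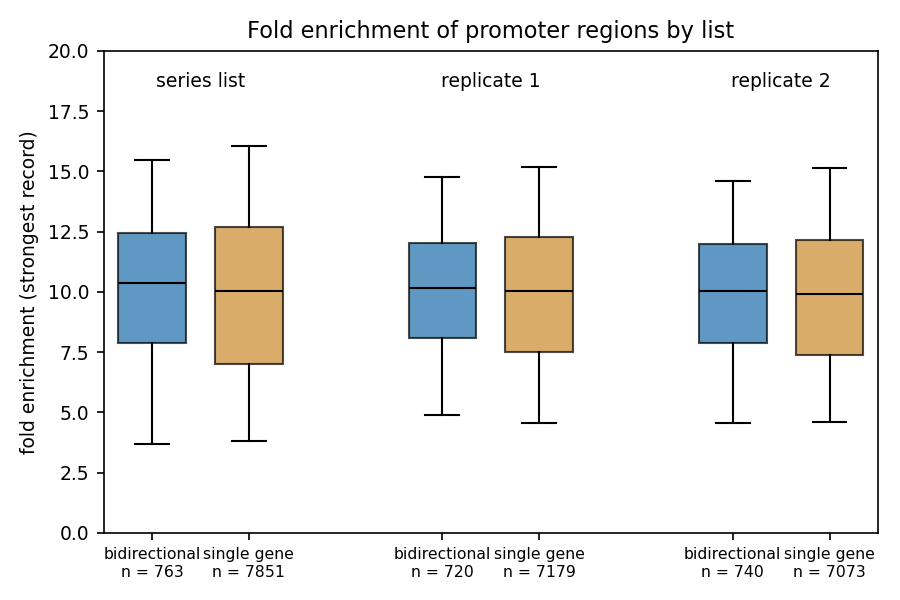
Fold enrichment of the strongest record (vertical axis, the authors' ratio) of bidirectional and single-gene promoter regions in the list of the series and in the list of each replicate. Boxes span the quartiles with the median as a line, and whiskers reach the 5th and 95th percentiles; the medians of the series list are 10.4 and 10.05, and the boxes overlap in every list.

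Members were wider. The median width was 1063 bp (1009 to 1092) against 855 bp (845 to 866), a ratio of 1.24 (1.17 to 1.29), and the ratio was 1.22 in replicate 1 and 1.21 in replicate 2. More than 1 summit was called in 83.0% of members and 75.3% of single-gene regions, a difference of 7.66 points (4.68 to 10.3). For 3 or more summits the shares were 61.3% and 45.5%. The median of the highest −log10 p among a region's records was 141 against 110, a ratio of 1.28 (1.20 to 1.37). This value grows with depth as well as with enrichment.

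**Figure D2:**
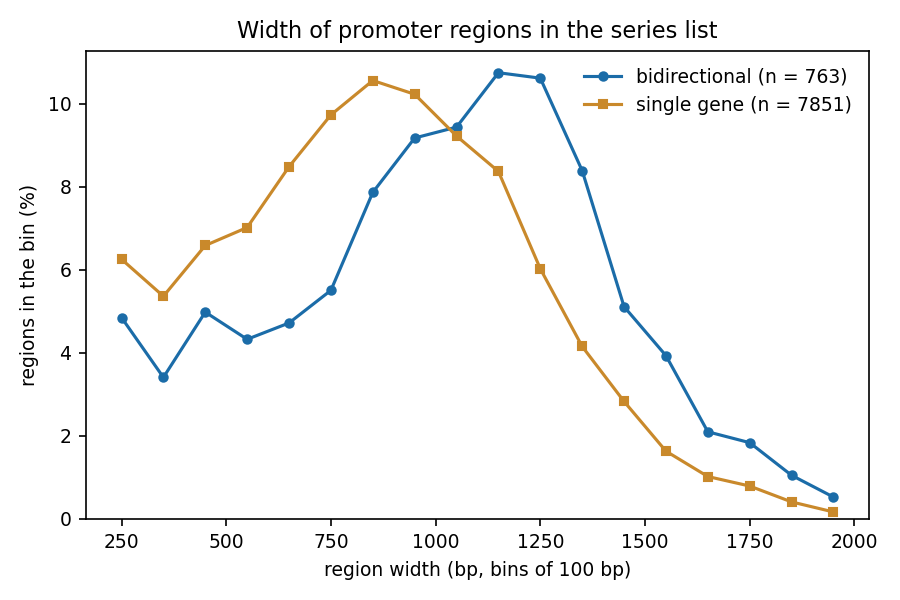
Share of regions (vertical axis, percent) in each 100 bp bin of width from 200 to 2000 bp (horizontal axis) for 763 bidirectional and 7851 single-gene promoter regions of the series list. The bidirectional line peaks between 1100 and 1200 bp with 10.7% of members, and the single-gene line between 800 and 900 bp with 10.6% of regions.

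Most members spanned the whole divergent promoter. Both starts lay inside 613 of 763 members (80.3%), 1 start inside 59 and neither inside 91. The start lay inside 80.9% of single-gene regions, and between these covering regions the fold was 10.98 against 10.9. The members covering both starts had a median width of 1141 bp against 927 bp. They reached a median of 479.5 bp into each gene, close to the 494 bp by which single-gene regions reached into theirs, while single-gene regions reached 392 bp upstream. The 150 members that missed a start were weaker and narrower, with a median fold of 5.19 and a width of 474.5 bp, and the 1503 single-gene regions that missed theirs had a median fold of 5.26.

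At 87 of the 668 pairs (13.0%) more than 1 region fell within the rule, 2 at 79 pairs and 3 at 8, close to the 13.2% of single genes with several regions. In these pairs the strongest region had a median fold of 10.04 and the weakest of 3.95, and the median gap between neighbours was 104 bp. The members of a pair share its DNA and are not independent of each other. Members whose midpoint lay just inside the 1 kb limit, 900 to 1000 bp from the farther start, numbered 29 with a median fold of 4.17 and width of 465 bp. The 23 regions just outside, at 1001 to 1100 bp, had 6.19 and 661 bp.

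The difference in width was also present among regions of middle and high CpG content at the summit, and it was not seen in the small CpG-low class. Members were CpG-high in 42.6% and CpG-low in 12.2%, against 36.0% and 19.4% of single-gene regions. The width ratio was 1.24 (1.15 to 1.32) in the middle class and 1.19 (1.13 to 1.26) in the high class. It was 0.876 in the low class, with an interval of 0.674 to 1.29 over 93 members. The fold ratio was 0.979, 1.01 and 0.996 in the low, middle and high classes.

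The starts of a pair were close. Their spacing had a median of 127 bp (113 to 137), quartiles of 64 and 240 bp, and a range of 0 to 1786 bp. Width hardly followed the spacing: the median width was 1024 bp where starts were 0 to 50 bp apart, 1093 bp at 101 to 200 bp and 948 bp over 400 bp, and Spearman's rho over the 763 members was 0.017, given as a description since regions share their libraries. The median fold was 10.9 (10.3 to 11.4) at 0 to 50 bp and 9.21 over 400 bp, with a rho of −0.13. Of the 76 pairs with starts over 400 bp apart, 35 (46.1%) had 1 region over both starts and 15 (19.7%) had a separate region over each.

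The strongest summit lay between the starts in 404 members (52.9%, 49.4 to 56.5). In 185 it lay inside the minus-strand gene and in 174 inside the plus-strand gene, which are shares of 24.2% and 22.8% with overlapping intervals. The median distance of the summit from the centre of the pair was 63.5 bp, and 59.0% of members had it within 100 bp. The share of members with the summit between the starts was 23.4% for a spacing of 0 to 50 bp, 48.4% at 51 to 100 bp, 58.5% at 101 to 200 bp, 63.5% at 201 to 400 bp and 77.5% above. The stretch between the starts is itself longer in each of these steps.

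Seen from each gene, the summit was upstream of the start by a median of 56 bp (quartiles 155 bp upstream and 4 bp upstream), against 22 bp upstream for single genes (80 bp upstream to 80 bp inside). It was upstream of 76.1% of the starts of pairs and of 60.7% of single starts. A part of this is set by the rule, since a region must stay within reach of a second start that lies upstream of the first. Among regions that covered their start or starts the medians were 54 and 30 bp upstream. With every annotated transcript start taken in place of the gene's outermost start, they were 52 and 57 bp upstream, which turns the direction.

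**Figure D3:**
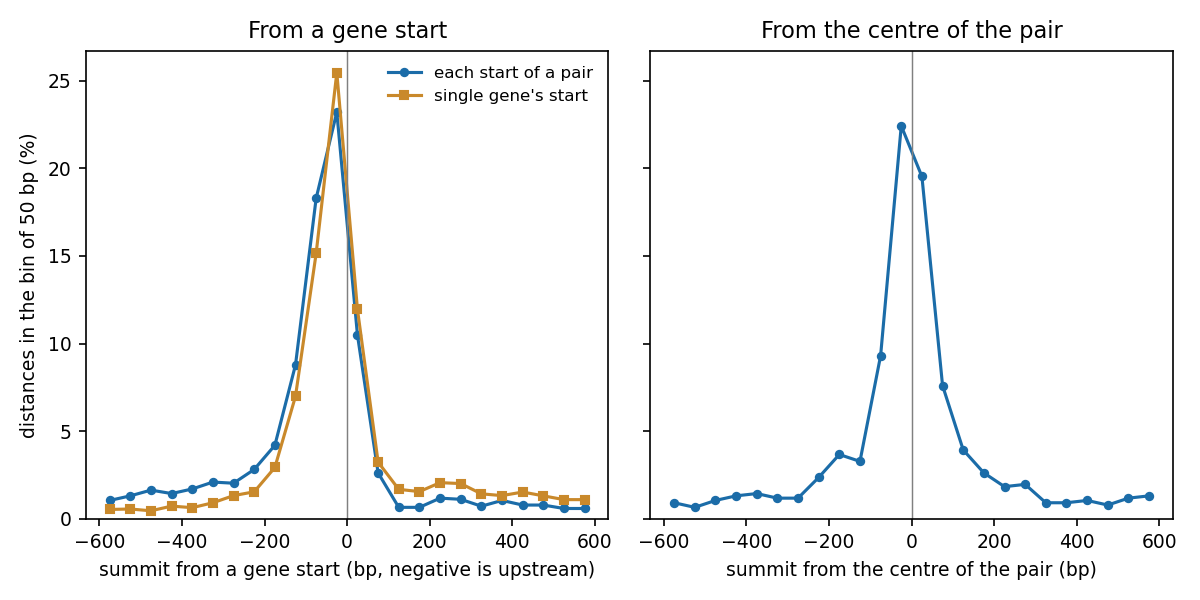
Share of distances (vertical axis, percent per 50 bp bin) between the strongest summit and a gene start (left; negative is upstream; each start of a pair and the start of a single gene) and between the summit and the centre of the pair (right). The bin from 50 bp upstream to the start holds 23.2% of the distances for pairs and 25.4% for single genes, and the single-gene line stays above the pair line from the start inward to 600 bp.

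Presence in both replicates was more frequent among members. Both replicates' own thresholded lists held 691 of 763 members (90.6%, 88.3 to 92.4), against 6606 single-gene regions (84.1%) and, as the background, 65.3% of all 24394 regions. The difference from single-gene regions was 6.42 points (4.01 to 8.47). Replicate 1 alone held 15 members and replicate 2 alone 13. The 44 members found in neither list had a median fold of 3.47 and a width of 256.5 bp. With the replicates' overlap lists the shares were 96.6% and 96.9%, and the conservative list held 96.9% and 96.2%. The difference was not seen in these lists.

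Members were less often in the lowest fold class, where sharing was lowest. With the mix of fold classes of the members, single-gene regions would have been shared in 87.3%, which leaves 3.27 of the 6.42 points within classes. In the second of the 4 fold classes, 97.2% of 211 members and 91.1% of single-gene regions were in both lists, a difference of 6.01 points (2.58 to 8.05). In the lowest class the shares were 55.2% and 47.8%, with an interval of −1.03 to 15.5 points. In the upper classes nearly all regions of either kind were shared: 100% of the members in the third and 170 of 171 in the highest. The exception was Helq/Mrps18c, with a fold of 17.6 in the series list and 16.5 in replicate 2, which was missing from replicate 1's thresholded list while replicate 1's overlap list gave it a fold of 16.5. Across the 691 shared members the replicates' folds had medians of 10.3 and 10.3, and differed by a median of 4.98% of their mean.

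**Figure D4:**
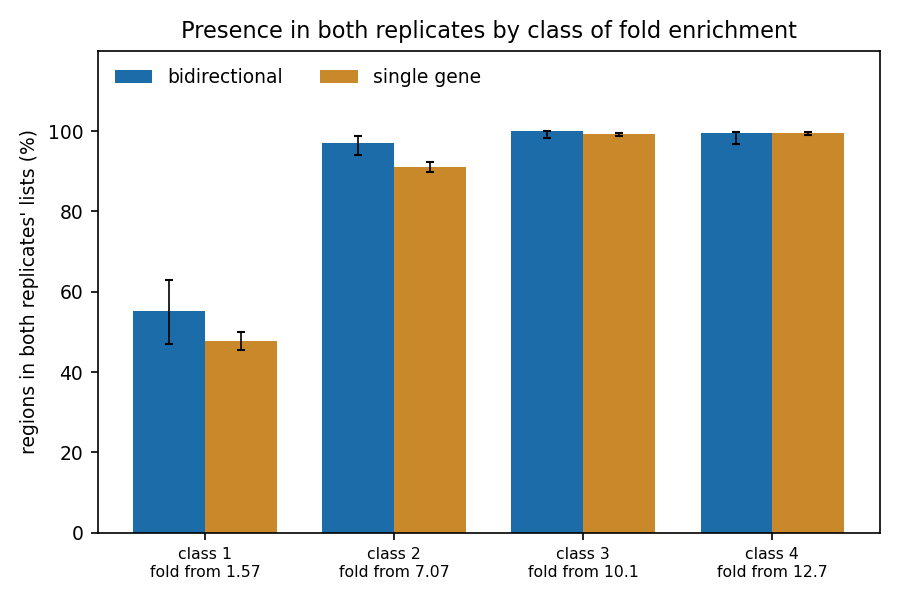
Share of regions present in both replicates' thresholded lists (vertical axis, percent) by class of fold enrichment, cut at the quartiles of bidirectional and single-gene regions together. Bars are shares and error bars Wilson 95% intervals; the blue bar is above the orange in classes 1 and 2, where the shares are 55.2% against 47.8% and 97.2% against 91.1%, and both are near 100% in classes 3 and 4.

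Sequence around the strongest summit was searched for 9 consensus sequences on both strands, within 100 bp to each side. For 3 the interval of the difference from single-gene regions left out 0, each higher in members. CCAAT, bound by the trimeric factor NFY, was in 40.9% of members and 34.2% of single-gene windows of the same length, a difference of 6.73 points (3.14 to 10.4). The ETS consensus CCGGAAG was in 23.3% and 16.7%, a difference of 6.58 points (3.60 to 9.81). The E2F sequence TTTCCCGC of cell cycle promoters was in 2.62% and 1.59%, a difference of 1.03 points (0.0628 to 2.44). No adjustment was made for searching 9. Against the 589 single-gene regions that also have a divergent noncoding start, the intervals of all 3 held 0: CCAAT differed by 4.90 points (−0.340 to 10.1), ETS by 3.13 (−1.34 to 7.49) and E2F by 0.754 (−0.959 to 2.37). The E2F interval also held 0 in the list of each replicate and with 50 bp to each side, where CCAAT and ETS kept intervals above 0.

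For the other 6 the intervals held 0. The GC box GGGCGG was in 63.4% and 63.3%, and the TATA sequence TATAAA in 3.01% and 2.20%. The erythroid GATA sequence AGATAA was in 20 members (2.62%) against 4.04%, a difference of −1.42 points (−2.44 to 0.0364). Its interval lay below 0 in the conservative list (−2.51 to −0.0245), the overlap list (−2.73 to −0.342) and replicate 1's list (−2.55 to −0.161). It also lay below 0 against single-gene regions with no noncoding start (−2.55 to −0.039). It held 0 in replicate 2's list, with 50 bp to each side and against single-gene regions with a divergent noncoding start. CGCATGCG, the core of the NRF1 site, was in 4.33% and 3.38%. AAGATGGCG, bound by YY1, was in 4.33% and 3.08%, and the cyclic AMP element TGACGTCA in 4.06% and 3.53%. A match is a description of the letters and not a measurement of binding. Some of these sequences can overlap within a window, and each was counted by itself.

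Within the CpG classes the ETS difference was 7.56 points (2.69 to 12.9) in the high class, 5.21 points (0.870 to 10.1) in the middle class and −0.053 points (−3.77 to 6.96) in the low class. E2F differed by 2.53 points (0.631 to 5.42) in the high class and by −0.614 points (−1.35 to 1.08) in the middle class. CCAAT differed by 8.84 points (3.43 to 14.3) in the middle class, and in the high and low classes its intervals of −0.230 to 10.7 and −2.62 to 17.7 held 0. In the CpG-high class the GC box was less frequent in members, 66.2% against 72.0% (−11.4 to −0.663 points). In the CpG-low class TATAAA was in 9 of 93 members (9.68%) and 3.61% of single-gene regions, a difference of 6.06 points (1.44 to 13.8). The NRF1 core CGCATGCG was in 2 of these 93 (2.15%) and 0.460% of single-gene regions, a difference of 1.69 points (0.0577 to 7.05). No adjustment was made for searching 9 sequences in each class.

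**Figure D5:**
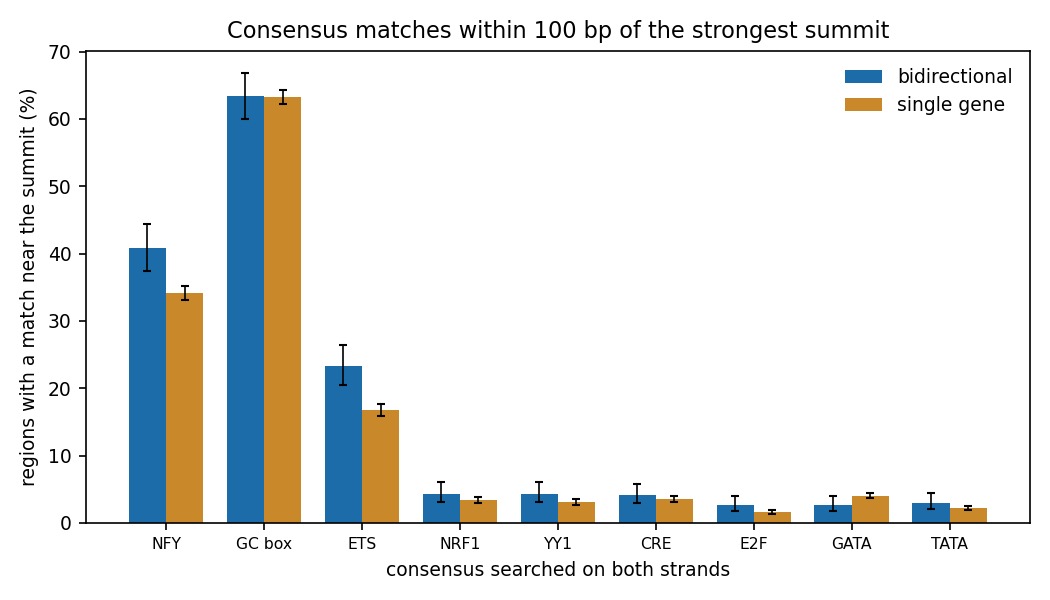
Share of regions (vertical axis, percent) with at least 1 consensus match within 100 bp of the strongest summit, for 9 consensus sequences in bidirectional and single-gene promoter regions, with Wilson 95% intervals as error bars. The blue bars of NFY (40.9%) and ETS (23.3%) stand above the orange bars (34.2% and 16.7%), and the GC box bars are level.

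Members with an ETS, CCAAT or GC box match had a higher fold, and those with TATAAA a lower fold, by intervals that do not overlap. The 178 members with the ETS consensus had a median fold of 11.4 (10.95 to 11.9) against 9.99 (9.64 to 10.3) without it. With CCAAT the medians were 11.1 and 9.99, and with the GC box 10.6 (10.3 to 11.03) and 9.64 (8.83 to 10.1). For the 33 members with the YY1 sequence the median was 12.04 (10.5 to 13.5) against 10.3 (10.03 to 10.6). The intervals for YY1 overlap. The 23 members with TATAAA had a median of 6.28 (4.89 to 9.50) against 10.4, and the 20 with AGATAA 7.32 (4.08 to 12.7) against 10.4. The single-gene regions had the same order for ETS (12.01 against 9.56), CCAAT (11.1 against 9.38), the GC box (10.5 against 9.08) and TATAAA (7.96 against 10.1).

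The region of highest fold, Gm17657/Tbc1d22b at chr17:29549499-29549924, had a series fold of 19.7, with 18.3 for replicate 1 and 18.1 for replicate 2. Its plus-strand gene encodes a TBC-domain protein, a class that acts on Rab GTPases, and its partner is a predicted gene. Cetn2/Nsdhl at chrX:72917937-72918739 had a fold of 19.4, 18.8 in replicate 1 and 17.3 in replicate 2. It pairs a centrin of the centriole, which also serves nucleotide excision repair, with a sterol dehydrogenase of cholesterol synthesis. In both, the replicates' values were within 10% of each other, and the summit lay between the starts.

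Nsa2/Gfm2 had a fold of 18.3 (16.6 in replicate 1 and 17.7 in replicate 2) with a spacing of 0 bp, the narrowest of all. It joins a ribosome biogenesis factor to a mitochondrial elongation factor. Slc7a6os/Prmt7 and Bag4/Lsm1 followed with spacings of 1 bp and folds of 13.9 and 13.6. The other members among the highest were Enkur/Thnsl1 (18.1), Pecr/Tmem169 (17.9), Fam3a/Ikbkg with the NEMO subunit of the NF-κB kinase (17.9), Fam126b/Ndufb3 with a complex I subunit (17.8), Fam90a1b/Apoo (17.7), Helq/Mrps18c and Zfp597/Gm20695 (17.4). Of these 10, Helq/Mrps18c alone was missing from a replicate's list.

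Members of the lowest folds were small regions away from the starts. A second region of Bag4/Lsm1 had a fold of 1.70, Nek8/Tlcd1 2.17, Zfp277/Dock4 2.30 and Cramp1l/Ift140 2.42. None of these 4 covered a start or was in replicate 1's list, and replicate 2 held Nek8/Tlcd1 with a fold of 5.34. The widest were Gm29427/Yod1 at 2424 bp with 9 summits, Mepce/Zcwpw1 at 2124 bp and Srgap2/Fam72a at 2039 bp, with folds of 7.46, 6.69 and 8.40. The widest spacings were Pdzd7/Sfxn3 at 1786 bp and Mbd6/Ddit3 at 1756 bp, and these 2 regions, between the starts, covered neither.

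Gene groups were described by the share of their genes that stood at a bidirectional region. Over all 21911 protein-coding gene symbols the share was 6.10%, and among the 8188 with a bidirectional or single-gene region it was 16.3%. Counts of group regions in both replicates, given below, stand beside 90.6% of all 763 members and 65.3% of all 24394 regions. The groups are counts in 1 annotation, and a share describes mostly how the genes are arranged in the genome. In an annotated head-to-head pair lay 28 genes of DNA repair, 24 of the respiratory chain list, 27 histone genes and 20 zinc finger genes named Zfp. At a bidirectional region stood 27, 24, 27 and 18 genes of these groups. Over all symbols the numbers were 1486 and 1336.

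No gene of the 44 erythroid regulators stood at a bidirectional region, while 38 (86.4%) had a single-gene region. Only 1 of the 44 lies in an annotated head-to-head pair, so the count of 0 was nearly set by the gene arrangement. A count of 0 of 38 allows a share of up to 7.89% when the limit is set at 3 counts, and the upper Wilson bound is 9.18%. Both bounds treat all 38 genes as free to stand at a pair, which their arrangement does not allow. Of 42 genes of haem synthesis and iron handling, 5 (11.9%; 14.7% of the 34 with a region, 6.45 to 30.1) stood at bidirectional regions: Urod, the uroporphyrinogen decarboxylase; Blvrb, the biliverdin reductase B; and Iscu, Isca2 and Hscb, which build iron-sulphur clusters. Their 7 regions had folds of 5.10 to 10.3 with a median of 7.44, against 10.4 over all members, and all 7 were in both replicates.

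Npc2/Isca2 was the highest of them, with a fold of 10.3 (9.89 in replicate 1 and 10.2 in replicate 2). Hscb/Chek2, which sets an iron-sulphur cochaperone beside a checkpoint kinase, had 7.75 (7.74 and 7.63). Sptbn4/Blvrb had 7.25 (6.40 and 7.47), with the summit 32 bp upstream of Blvrb and 260 bp from Sptbn4, a spectrin gene. Sart3/Iscu had a region of fold 7.44 over both starts, whose summit was 16 bp upstream of Iscu, and a region of 7.66 inside Sart3 over neither. Urod/Hectd3, with starts 904 bp apart, had a region at each: 6.74 (6.39 and 6.68) with the summit 18 bp upstream of Urod, and 5.10 (5.03 and 4.97) with it 4 bp upstream of Hectd3, a ubiquitin ligase gene.

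The replication-dependent histones had the largest share of the 17 groups: 27 of 67 genes (40.3%; 46.6% of the 58 with a region, 34.3 to 59.2) at 18 regions, and both genes of 17 of them were histone genes. They were weaker and narrower than members at large, with a median fold of 6.07 (range 2.43 to 9.14), a median width of 419.5 bp and a median CpG ratio of 0.604, and 15 of 18 were in both replicates. The highest were Hist1h2ac/Hist1h2bc at chr13:23683838-23684292 with a fold of 9.14 (8.36 in replicate 1 and 9.47 in replicate 2), Hist1h2bh/Hist1h3f with 8.40 and Hist1h2ah/Hist1h2bk with 8.02. In each the single summit lay between the starts. Histone genes are near-identical copies, so the assignment of reads among them is uncertain. Both genes of a histone pair were counted by the same region, so the interval of 34.3 to 59.2 is too narrow.

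DNA repair came next, with 27 of 89 genes (30.3%; 34.6% of the 78 with a region, 25.01 to 45.7) at 32 regions of median fold 10.3, of which 28 were in both replicates. They include Brca1 and Palb2 of homologous recombination, Pms2 of mismatch repair, and Xpc and Ercc8 of nucleotide excision repair. Atm/Npat, which joins the DNA damage kinase to the activator of histone genes, had a fold of 11.6 (11.1 and 11.3) over 307 bp between the starts. Mcm4/Prkdc, a helicase subunit beside the catalytic subunit of the DNA-dependent kinase, had 11.9 (11.5 and 11.5), with the summit 5 bp upstream of Mcm4 and 461 bp from Prkdc. Emc3/Fancd2 had 10.3 and Ndufaf2/Ercc8 11.6.

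The strongest members with a repair gene did not all sit on the pair. Pinlyp/Xrcc1, with a fold of 16.5, had its summit 750 bp inside Xrcc1, a scaffold of base excision repair. Rad51c/Tex14, with 15.5, had it 429 bp inside Rad51c, and neither region covered a start. Mospd2/Fancb, with 15.3, covered both starts with the summit 10 bp upstream of Fancb. Of 52 DNA replication genes 8 (15.4%) stood at members of median fold 11.9, led by Orc3/Rars2 with 15.97, Rpa1/Smyd4 with 15.1 and Abhd12/Gins1 with 13.2. Of 76 genes of mitosis and the cell cycle there were 12 (15.8%), at 13 regions of median fold 10.7, all in both replicates.

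Of 104 genes of the respiratory chain and ATP synthase 24 (23.1%; 29.6% of the 81 with a region, 20.8 to 40.3) stood at members, with a median fold of 12.03 over 27 regions, 26 of them in both replicates. Fam126b/Ndufb3 led with 17.8, followed by Cebpz/Ndufaf7 with 15.4 and Wdr4/Ndufv3 with 14.9. Of 78 mitochondrial ribosomal proteins 18 (23.1%; 31.0% of the 58 with a region, 20.6 to 43.8) stood at 20 members of median fold 9.95, led by Helq/Mrps18c, Mrpl37/Cyb5rl with 17.1 and Ptcd2/Mrps27 with 15.8. Timm23/Parg (13.8), Sdhd/Timm8b (13.1) and Pqbp1/Timm17b (12.6) carry genes of inner membrane import. They belong to the list of mitochondrial import and chaperones, of which 4 of 33 genes stood at members. Hadha/Hadhb, the 2 subunits of the trifunctional protein of fatty acid oxidation, shared a region of fold 10.8 (10.3 and 10.3), and Mrps12/Sars2 shared 12.2 (11.8 and 11.9).

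Other groups of widely expressed genes had shares from 9.09% to 22.2%. Splicing factors had 18 of 81 genes (22.2%) at 25 regions of median fold 8.92, led by Ccdc157/Sf3a1 with 16.1. Subunits of RNA polymerases, Mediator and TFIID had 17 of 81 (20.99%) at 17 regions of median fold 10.8, all in both replicates, among them Med29/Paf1 with 15.6 and Ptcd3/Polr1a with 15.3. The proteasome had 8 of 50 (16%), transfer RNA synthetases 5 of 35 (14.3%), chaperonin and heat shock proteins 13 of 84 (15.5%) and cytosolic ribosomal proteins 8 of 88 (9.09%), among them Iqcg/Rpl35a with 14.7 and Rps27/Rab13 with 14.6. Among the genes with a region, cytosolic ribosomal proteins had 11.8% at members (6.08 to 21.5), mitochondrial import and chaperones 15.4%, transfer RNA synthetases 17.2%, mitosis and cell cycle 18.75%, DNA replication 19.0%, the proteasome 21.1%, chaperonin and heat shock proteins 23.6%, RNA polymerase and Mediator subunits 24.3% and splicing factors 27.7%. Of these, the interval for splicing (18.3 to 39.6) alone lay above 16.3%. Hspa1a/Hspa1l, a heat shock pair, had 14.9, and Hspa1a has a near-identical copy, Hspa1b, so its reads are uncertain. Zinc finger genes named Zfp had 18 of 394 (4.57%; 8.41% of those with a region, 5.39 to 12.9), with 2 regions joining zinc finger genes on both sides, Zfp944/Zfp758 and Zfp942/Zfp943, at 15.6 and 14.6.

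In 211 members at least 1 gene belonged to a group, in 44 both did, and in 19 the genes came from different groups. These include Orc3/Rars2, Cct6b/Zfp830 (14.3, a chaperonin subunit and a zinc finger gene), Mrpl32/Psma2 (13.8, a mitochondrial ribosomal protein and a proteasome subunit), Sdhd/Timm8b and Dnajc2/Psmc2 (10.1). Across chromosomes, bidirectional regions made up from 4.88% (chromosome X) to 11.5% (chromosome 12) of bidirectional and single-gene regions together, and 0 of 4 on chromosome Y.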

How the data were processed

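Peak lists from ATAC-seq of 2 libraries of mouse CFU-E were used. The listing deposited with the files names mm10 and lists made from each replicate and from both, thresholded by IDR (irreproducible discovery rate). No source used here names the aligner, the peak caller or their versions. The fold enrichment is a ratio computed by the authors, over a background that is not described, and p stands on the −log10 scale in the deposited lists, 1 value per record. Both were used only to describe regions within a list.

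Records that overlapped or touched were merged. A region took the fold and summit of its strongest record, the one of highest fold, and the highest −log10 p of any of its records. Genes came from GENCODE M21 on GRCm38 (mm10), with the 5′ end of the gene record as the start, and positions are 1-based. Presence in a replicate needed 1 bp of overlap. The CpG class and consensus matches used 201 bp around the strongest summit (around the start for genes of annotated pairs). Shares have Wilson 95% intervals, differences Newcombe intervals and medians order-statistic intervals; bounds of a ratio come from the intervals of both medians. With 1 group no test over samples was made. The members and the 17 gene lists were chosen with earlier results of these data known. Named members were the 10 highest and 5 lowest by fold, the 3 widest, the 3 with the widest and the 3 with the narrowest spacing, every member at the haem and iron, erythroid or known-pair lists, and up to 3 per other list; some are not reported here. The alternatives were other lists, windows, start definitions, comparison sets, record summaries and overlaps. Classification was tested on simulated regions. Python 3.11.15, numpy 2.4.6, scipy 1.17.1 and pysam 0.24.0 were used.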

Additional observations from a re-analysis of the deposited data

How the results depend on the processing

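No paired analysis was possible because both libraries belong to 1 group. Using the replicates' lists by themselves, the difference in regions with several summits was 9.79 to 11.3 points (7.66 in the series list). Without an IDR threshold, the pair share was 91.8%, the ratios of fold, −log10 p and width were 1.16, 1.58 and 1.34, the summit difference was 12.2 points, 49.2% of summits lay between the starts, the signed distance differed by −43 bp, and 5 consensus sequences had intervals without 0 (4 higher, 1 lower). Within 500 bp of both starts, the values were 83.0% of pairs, 58.0% of summits between and −24 bp. With every transcript start there were 1193 members, 86.7% of pairs, ratios of 1.11, 1.41 and 1.33, a summit difference of 12.9 points, 48.7% between, a sharing difference of 10.4 points, and a signed distance difference of 5 bp, which reversed; the cause was not tested. Requiring overlap with both starts gave 83.3% of pairs, 59.4% between and −24 bp. Counting overlapping 5′ ends gave 1179 members, 42.9% between and −8 bp. Against single-gene regions with no noncoding start, 5 consensus sequences differed (4 higher, 1 lower). Both here and without an IDR threshold, the lower sequence was AGATAA. Against those with a divergent noncoding start, the −log10 p ratio was 1.19, the signed distance difference −9 bp, and 1 sequence had an interval without 0, that of YY1 (2.29 points), while CCAAT, ETS (3.13) and E2F lost theirs and the GC box moved to −4.65. The median of a region's records gave a fold ratio of 0.962. Sharing by the replicates' overlap lists reversed to −0.287 points, and presence in the conservative list gave 0.676; the cause was not tested. With 50 bp to each side, TATAAA differed by −0.275 points and ETS by 2.58. For regions covering their start or starts, an alternative added after seeing the data like that of the strongest region per pair or gene, the signed distance difference was −24 bp. The other 75 values of main results and 59 of single sequences moved by less than their intervals or, for counts, stayed within 1.5 times. The pair share with overlapping 5′ ends counted was not run. Intervals count regions, not animals, and read depth was unknown.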
